A study of Mus musculus with 16 samples.

Results

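Acod1 encodes aconitate decarboxylase 1, the mitochondrial enzyme that makes itaconate from the tricarboxylic acid cycle intermediate cis-aconitate, and is still widely known by its older symbol Irg1. Its row was 1 of the 734 gene rows of a myeloid panel. The gene was chosen by its measured level across the 4 treatment groups, on the deposited scale and after subtracting each mouse's median, and by its correlation with other rows within groups. These values are therefore given as descriptions, with no test.

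CD11b+ myeloid cells were isolated from the spleens of 16 wild-type C57BL/6 mice (B6, named C57BL/6J in the study's methods), 4 in each of 4 groups, and their RNA was counted with the nCounter Myeloid Innate Immunity panel, in which colour-coded probes count mRNA molecules without amplification. Naive mice were untreated. The remaining 12 mice were given 20000000 BALB/c spleen cells, which are allogeneic to B6 mice and which the labels describe as T cell depleted, either with nothing else, with CTLA4-Ig (abatacept, 150 µg i.p. on day 2), or with CTLA4-Ig and recombinant EPO (epoetin alfa, 5000 U/kg i.p. daily). CTLA4-Ig is a fusion protein that blocks CD28 costimulation, and EPO is the hormone of red cell formation. Spleens were taken on day 7.

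The labels name i.p. as the route for the injected cells and the study's results name i.v., and the results describe the cells profiled as CD11b+CD11c-, whereas the methods and labels give positive selection for CD11b. In 1 protocol field, the letters that stand for untreated mice and for BALB/c cells alone are exchanged with respect to the sample names. Every comparison that uses either of these groups, and its direction, rests on the sample names and treatment fields. No label says more about the origin of the 4 mice of a group than their number, so the spread between them may hold technical as well as biological variation. The 8 genes used to check a CD11b+ myeloid sample, among them Itgam (the CD11b chain), Itgb2, Tyrobp and Csf1r, were detected in all 16 mice, with a lowest recovered count of 476. All 8 were called lower after BALB/c cells alone than in naive mice on the deposited scale (median −1.73), where 58.4% of all rows were. After median subtraction 6 were called lower, against 26.7% of all rows, and per total count 5, against 18.0%. The 8 genes together held 2.71% to 3.72% of recovered counts in naive mice and 1.92% to 2.12% after BALB/c cells alone. Under CTLA4-Ig they held 2.12% to 2.49% and with EPO 3.40% to 3.699%. Their share was thus lower than in naive mice after BALB/c cells alone and under CTLA4-Ig, and overlapped with it with EPO, where Acod1 was lowest. Their part in the level of Acod1 was not tested.

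Acod1 is a gene of activated myeloid cells. It is close to silent in many resting macrophages and is induced by Toll-like receptor (TLR) ligands and interferons, through NF-kB and interferon regulatory factors, and it is also expressed by activated neutrophils. Its product, itaconate, inhibits succinate dehydrogenase, modifies Keap1 and thereby releases the antioxidant regulator Nrf2, and restrains the Nlrp3 inflammasome and the NF-kB cofactor IkB-zeta (Nfkbiz). It is known as a brake on IL-1β and IL-6 production by inflammatory macrophages.

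The 250 bases before the annotated start of Acod1 are shown because that region is where such inducers act, beside the same stretch of Cxcl2, the row most like Acod1 in these mice, and of Il1b, a row like Acod1 between groups but less so within them. The sequences are RefSeq promoter windows of GRCm38.p6, read 5′ to 3′ on the gene's strand, at chr14:103046762-103047011 (plus strand) for Acod1, chr5:90903649-90903898 (plus strand) for Cxcl2 and chr2:129371140-129371389 (minus strand) for Il1b. Capitals mark matches on either strand to GGNNNTTCC (an NF-kB type motif), AANNGAAA (an interferon regulatory factor type motif) and TATAAA (the core promoter element bound by the general transcription machinery).
Acod1: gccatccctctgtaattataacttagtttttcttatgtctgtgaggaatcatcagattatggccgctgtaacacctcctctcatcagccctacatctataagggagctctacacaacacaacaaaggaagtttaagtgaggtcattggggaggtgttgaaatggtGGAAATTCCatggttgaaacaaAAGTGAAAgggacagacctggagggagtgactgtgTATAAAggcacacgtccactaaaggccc
Cxcl2: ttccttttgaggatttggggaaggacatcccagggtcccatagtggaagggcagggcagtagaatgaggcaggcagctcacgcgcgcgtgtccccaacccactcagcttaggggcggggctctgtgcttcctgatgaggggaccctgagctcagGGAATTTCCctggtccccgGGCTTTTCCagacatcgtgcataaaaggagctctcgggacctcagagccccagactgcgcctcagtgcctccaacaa
Il1b: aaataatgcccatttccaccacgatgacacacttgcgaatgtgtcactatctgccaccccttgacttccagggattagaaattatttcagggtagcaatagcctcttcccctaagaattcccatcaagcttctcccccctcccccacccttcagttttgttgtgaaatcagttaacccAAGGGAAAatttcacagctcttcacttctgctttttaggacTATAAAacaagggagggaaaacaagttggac

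The Acod1 window held 1 match to each of the 3 motifs, which begin 85 (NF-kB type), 63 (interferon regulatory factor type) and 28 (TATAAA) bases before the start. The Cxcl2 window held NF-kB type matches at 96 and 77 bases before the start and neither of the other motifs, and the Il1b window held the interferon regulatory factor type motif at 72 bases and TATAAA at 31 bases. None of these letter patterns is rare. Windows of the same length held the NF-kB type motif in 17.6% of 27025 genes, the interferon regulatory factor type motif in 23.9% and TATAAA in 14.3%, and the 561 panel genes with a window held them in 24.1%, 27.8% and 18.4%. The motifs were chosen after the Acod1 window had been read, and a match describes the sequence only.

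Acod1 was high in naive mice and low in every mouse given BALB/c cells. The authors deposited log2 values that they had normalized, and on this scale the naive mice had 10.72, 10.55, 10.24 and 10.21 (mean 10.43 ± 0.24 SD, n = 4), in the order of replicate number. Mice given BALB/c cells alone had 5.50, 4.77, 4.89 and 4.23 (4.85 ± 0.52, n = 4). Mice given CTLA4-Ig had 5.15, 5.49, 4.10 and 4.37 (4.78 ± 0.65, n = 4), and mice given CTLA4-Ig plus EPO had 4.39, 4.70, 3.81 and 4.06 (4.24 ± 0.39, n = 4). The lowest naive value lay far above the highest of the 12 treated mice, 5.50, and the 3 treated groups overlapped one another.

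The deposited values were whole counts times a single factor for each mouse, so the molecule counts behind them could be recovered. Acod1 was counted 908, 1182, 724 and 868 times in the naive mice. It was counted 62, 36, 47 and 30 times after BALB/c cells alone, 51, 57, 29 and 31 times with CTLA4-Ig, and 29, 34, 25 and 26 times with CTLA4-Ig plus EPO, out of totals of 562760 to 912328 per mouse. The gene was thus still counted in all 12 treated mice, but on few molecules. No background level was estimated here, so whether some of these counts were nonspecific was not tested. The lowest treated count of 25 has an exact 95% Poisson interval of 16.2 to 36.9 and the highest, 62, one of 47.5 to 79.5, which cover counting error only. On the log2 scale, counting error alone gives an SD of 0.18 to 0.29 for a treated mouse, with a mean of 0.22, 0.23 and 0.27 in the 3 treated groups, against SDs between mice of 0.52, 0.65 and 0.39. For naive mice the counting SD was 0.048 on average.

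**Figure D1:**
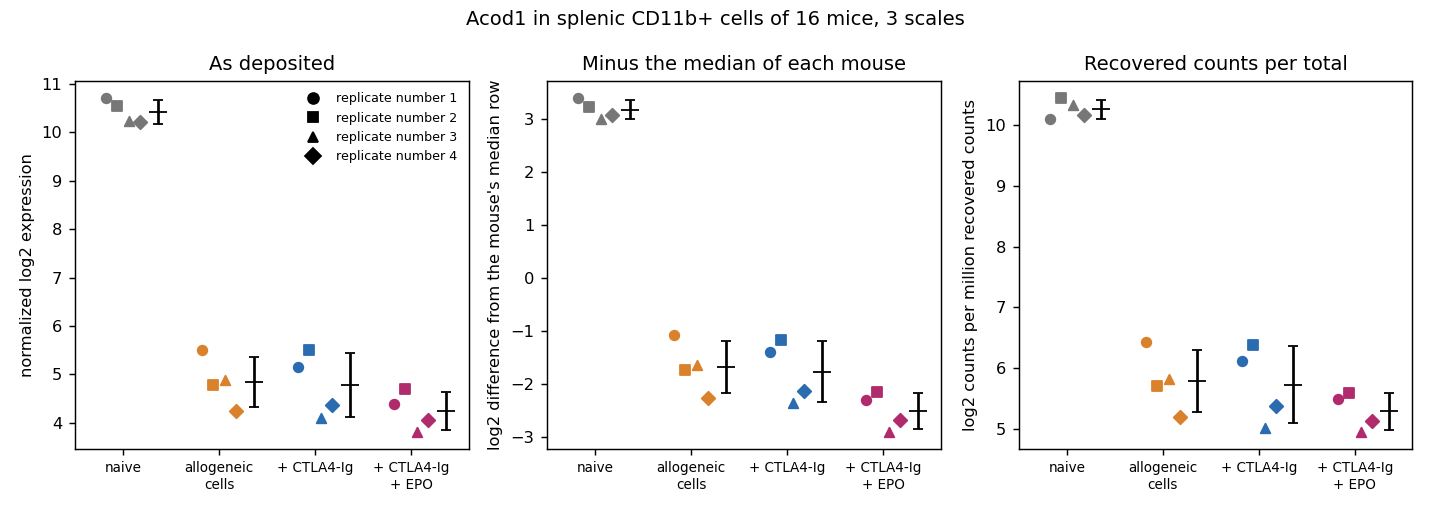
Acod1 in each of 16 mice (points, with a marker for each replicate number) with the group mean and SD (black bars, n = 4), on 3 log2 scales: as deposited, after subtracting the median of all rows in the same mouse, and as CPM from recovered counts. The naive mice lie apart from the 12 treated mice on each scale, and the 3 treated groups overlap.

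The scale changed the size of the gap but not its presence. The median of all rows in a mouse fell by 0.73 on the log2 scale from naive mice to mice given BALB/c cells alone. After subtraction of this median, Acod1 averaged 3.17 ± 0.18 in naive mice, −1.68 ± 0.48 after BALB/c cells alone, −1.76 ± 0.57 under CTLA4-Ig and −2.51 ± 0.35 with CTLA4-Ig plus EPO (SD, n = 4 each). The naive mice thus held Acod1 well above their median row and the treated mice well below it. As CPM, the recovered count scaled to an equal total in every mouse, Acod1 averaged 1232 ± 139 in naive mice, 57.0 ± 20.6 after BALB/c cells alone, 56.0 ± 23.7 under CTLA4-Ig and 39.1 ± 8.16 with CTLA4-Ig plus EPO.

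The difference between BALB/c cells alone and naive mice was −5.58 (SE 0.29) on the deposited log2 scale, −4.85 (SE 0.26) after median subtraction and −4.48 (SE 0.27) per total count, which correspond to levels 47.8-fold, 28.8-fold and 22.3-fold lower. On each of these 3 scales Acod1 had the most negative difference of all 734 rows. It was followed by Cxcr2, a receptor for neutrophil-attracting chemokines, at −5.47 on the deposited scale and Csf3r, the receptor for granulocyte colony-stimulating factor, at −5.07. Acod1 was therefore 1 of many genes lower in this comparison, where limma called 58.4% of all rows lower and 11.9% higher on the deposited scale. Of these calls 16.9% were higher, against 55.3% after median subtraction and 71.6% per total count. In cells isolated in bulk, fewer cells of a type and less RNA per cell cannot be told apart.

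With CTLA4-Ig added to BALB/c cells, Acod1 differed by less than the spread between mice. The difference was −0.07 (SE 0.42) on the deposited scale, −0.08 (SE 0.37) after median subtraction and −0.06 (SE 0.41) per total count, with values interleaved between the groups. In this comparison limma called 0 of 734 rows (0%) after Benjamini-Hochberg adjustment, and 70 had an unadjusted P below 0.05. The lowest adjusted P in limma was 0.25, and limma-voom on the recovered counts also called 0.

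With EPO added to CTLA4-Ig, Acod1 was lower by 0.54 (SE 0.38) on the deposited scale, 0.74 (SE 0.33) after median subtraction and 0.43 (SE 0.35) per total count. Without replicate 2 of the CTLA4-Ig group the deposited difference was −0.30. The groups overlapped on all 3 scales, and a mouse given EPO had the lower value in 12, 14 and 11 of the 16 possible pairs of mice. Mice of these groups that share a replicate number deviated together over all rows, though weakly (r of 0.143 to 0.183), and the labels do not explain the number. Within the numbers, added after the values were seen, the mouse given EPO had less Acod1 in 4 of 4 pairs on each scale. On the deposited scale these differences were −0.76, −0.80, −0.29 and −0.32, and the SE of their mean was 0.14, against 0.11 after median subtraction and 0.17 per total count. In this comparison limma called 22.8% of all rows higher and 28.3% lower, so that 44.5% of the calls were higher, against 31.3% after median subtraction and 55.9% per total count. Against naive mice, the mice given CTLA4-Ig plus EPO had 6.19 (SE 0.23) less Acod1 on the deposited log2 scale, 5.67 (SE 0.20) less after median subtraction and 4.97 (SE 0.17) less per total count, with no overlap. Limma called 61.7% of all rows lower and 9.13% higher in that comparison, with 12.9% of the calls higher, against 40.3% after median subtraction and 79.1% per total count. The group means fell in the order naive, BALB/c cells alone, CTLA4-Ig, and EPO on all 3 scales, and the neighbours among the 3 treated groups overlapped.

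Marker genes of mature neutrophils moved with the fall of Acod1, and their part in it was not tested. The 15 such genes in the table held 29.1% to 50.7% of all recovered counts in naive mice, 3.03% to 7.37% after BALB/c cells alone, 3.34% to 5.46% under CTLA4-Ig and 8.58% to 16.5% with CTLA4-Ig plus EPO, and none was at the lowest count in all mice. Markers of tissue macrophages (11 genes, among them C1qa, Cd163 and Vcam1) held 0.643% to 1.05% of counts in naive mice, 1.76% to 2.13% after BALB/c cells alone, 1.65% to 1.77% under CTLA4-Ig and 4.88% to 7.90% with CTLA4-Ig plus EPO. On the deposited scale 3 of these 11 were called higher and 2 lower after BALB/c cells alone, where 11.9% and 58.4% of all rows were. Their median difference was 0.07. With EPO added to CTLA4-Ig, 10 were called higher and 0 lower, where 22.8% and 28.3% of all rows were, with a median of 1.72. The 5 T cell genes in the table, among them Cd28, Icos and Ctla4, held 0.0323% to 0.0768% in naive mice, 0.245% to 0.310% after BALB/c cells alone, 0.236% to 0.267% under CTLA4-Ig and 0.0795% to 0.118% with CTLA4-Ig plus EPO. Genes of B cells (2 genes) and dendritic cells (7 genes) likewise held more of the counts after BALB/c cells alone (0.457% to 0.546% and 1.07% to 1.14%) than in naive mice (0.0580% to 0.108% and 0.119% to 0.369%), and intermediate shares with EPO (0.260% to 0.377% and 0.501% to 0.612%). The 7 monocyte genes in the table held 1.38% to 2.16% in naive mice and 1.79% to 2.37% after BALB/c cells alone. They held 2.11% to 2.43% under CTLA4-Ig and 1.80% to 2.10% with CTLA4-Ig plus EPO. On the deposited scale 6 of these 7 were called lower after BALB/c cells alone, against 58.4% of all rows. All shares are parts of 1 total, so a smaller neutrophil share by itself raises the others. The naive samples thus held the largest neutrophil share and the mice given EPO the largest macrophage share.

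Each of the 15 neutrophil genes was called lower after BALB/c cells alone than in the naive group, against 58.4% of all rows. Their median difference was −3.88 against −0.65 over all rows. When counts were scaled to the total, 14 of 15 were called lower, against 18.0% of all rows. S100a9, an alarmin that is 1 of the most abundant neutrophil transcripts, had 18.57, 17.35, 16.98 and 17.43 in naive mice and 14.12, 12.71, 13.17 and 12.40 after BALB/c cells alone. This fall of 4.48 (SE 0.41) was called by limma (adjusted P = 1.79e-07). Csf3r fell by 5.07 (SE 0.20, adjusted P = 7.27e-11), Cxcr2 by 5.47 (SE 0.29, adjusted P = 6.51e-10) and Mmp9, a matrix protease of neutrophil granules, by 4.48 (SE 0.18, adjusted P = 8.12e-11). S100a8, the partner of S100a9, fell by 4.31, Ly6g by 3.67 and the collagenase Mmp8 by 3.26.

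With EPO, part of the neutrophil genes rose and the mean of Acod1 was lower. Of the 15 neutrophil genes, 6 were called higher with EPO than with CTLA4-Ig without EPO and 2 lower, against 22.8% and 28.3% of all rows, with a median difference of 0.65 against −0.07 over all rows. S100a9 had 13.56, 13.48, 12.61 and 12.72 with CTLA4-Ig and 14.29, 15.46, 14.47 and 14.75 with EPO, a rise of 1.65 (SE 0.41) called by limma (adjusted P = 0.0035) with no overlap. S100a8 rose 2.83-fold (adjusted P = 0.0043), Camp, the cathelicidin of secondary granules, by 1.94 on the log2 scale (SE 0.40, adjusted P = 0.00078), Mmp9 by 0.71, and the formyl peptide receptors Fpr1 and Fpr2 rose 2.49-fold and 2.82-fold. Il1r2, a decoy receptor for interleukin 1, fell by 3.08 (SE 0.19, adjusted P = 1.23e-08). The differences of Csf3r (0.41), Cxcr2 (0.30), Mmp8 (0.65) and Ly6g (0.92) did not pass the test, with adjusted P between 0.066 and 0.43 in limma. Acod1 was lower on average by 0.54.

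Ratios within a mouse do not depend on how the mice were scaled, and were examined after the values had been seen. Relative to the mean of the 15 neutrophil genes, Acod1 was lower by 1.86 (SE 0.19) on the log2 scale after BALB/c cells alone than in naive mice, different by −0.15 (SE 0.21) with CTLA4-Ig, and lower by a further 1.10 (SE 0.25) with EPO, with no overlap between CTLA4-Ig and CTLA4-Ig with EPO. Relative to S100a9, it was lower by 1.10 (SE 0.29) after BALB/c cells alone and by a further 2.19 (SE 0.23) with EPO, again with no overlap. Relative to Csf3r, it was lower by 0.51 (SE 0.26) after BALB/c cells alone, with overlap, and by 0.95 (SE 0.31) with EPO, without overlap. These ratios describe Acod1 in the same values by which it was chosen. Their falls from naive mice to BALB/c cells alone were fixed in advance, since Acod1 had the most negative difference of all rows.

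**Figure D2:**
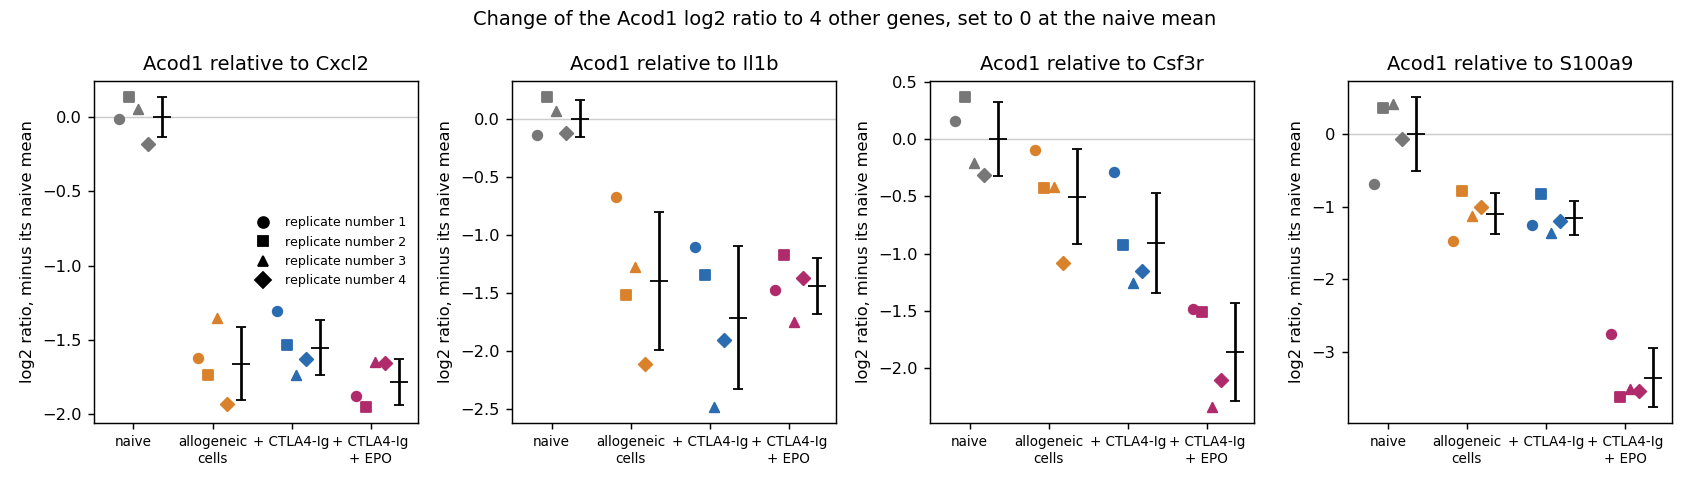
The log2 ratio of Acod1 to Cxcl2, Il1b, Csf3r and S100a9 in each of 16 mice (points), minus the mean ratio of the naive mice, with group means and SDs (black bars, n = 4). From CTLA4-Ig to CTLA4-Ig with EPO, the ratio to S100a9 fell by 2.19 and that to Csf3r by 0.95, whereas the ratios to Cxcl2 and Il1b overlapped between these groups.

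The 10 rows most like Acod1 over the 16 mice included, in order of Pearson's r, Cxcl2, Clec7a, Cdkn1a, S100a11, Ptafr, H2-Q10, Osm, Il1b and Hdc, with r from 0.996 for Cxcl2 to 0.983 for Hdc. These r values mostly reflect the gap between naive and treated mice, which many rows share, and the rows come from the same samples. The median r over all other rows was 0.61, and 122 rows exceeded 0.9. Cxcl2 is a neutrophil-attracting chemokine made by activated myeloid cells, Clec7a is the β-glucan receptor dectin-1, Ptafr is the receptor for platelet-activating factor, Osm is the cytokine oncostatin M, and Hdc makes histamine. H2-Q10 is an MHC class I gene with close relatives, whose probe may also bind their transcripts.

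Cxcl2 had 13.10, 12.78, 12.55 and 12.77 in naive mice, 9.49, 8.88, 8.61 and 8.53 after BALB/c cells alone, 8.83, 9.39, 8.20 and 8.37 with CTLA4-Ig, and 8.64, 9.02, 7.83 and 8.08 with CTLA4-Ig plus EPO. As for Acod1, the naive mice lay apart, the treated groups overlapped and the lowest mean was that of the mice given EPO. Il1b, the gene for interleukin 1β, had 14.43, 13.93, 13.74 and 13.91 in naive mice, 9.74, 9.86, 9.74 and 9.92 after BALB/c cells alone, 9.83, 10.42, 10.15 and 9.85 with CTLA4-Ig, and 9.44, 9.44, 9.13 and 9.001 with CTLA4-Ig plus EPO. Here the mice given EPO lay below all mice of both other treated groups. Relative to Cxcl2, Acod1 was lower by 1.66 (SE 0.14) after BALB/c cells alone than in naive mice and differed by −0.23 (SE 0.12) between EPO and CTLA4-Ig, and relative to Il1b these differences were −1.39 (SE 0.31) and 0.27 (SE 0.33). Both treated differences had overlapping groups. After BALB/c cells alone Acod1 had the most negative difference of all rows against naive mice, so its ratio to any other gene had to fall there. Its ratios to Cxcl2 and Il1b overlapped among the treated groups.

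Among the 12 mice given BALB/c cells, where the gap to naive mice plays no part, Cxcl2 remained the row most like Acod1, with r = 0.93 and Spearman's rho = 0.91, against a median r of 0.24 over all other rows. S100a11 (r = 0.81) was again among the 10 most alike, and Il1b (r = 0.53), Hdc (r = 0.39) and Osm (r = 0.49) were not. The 10 most alike in these 12 mice also held, named here after their values were seen, Areg, Irf2, Sptbn1, Hif1a, Peli1, Pdcd1lg2 and Dnajb6, with r from 0.80 to 0.86.

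Within groups, Acod1 again varied with Cxcl2. Each mouse's deviation from its group mean was correlated between Acod1 and the 482 other rows with at least 20 counts in every mouse, giving a median r of 0.21 over the 16 mice. The highest r values were those of Cxcl2 (0.92), Cd84 (0.91), Ceacam1 (0.87) and Hgf (0.87). Cd84 is an adhesion receptor of the SLAM family, Ceacam1 an inhibitory adhesion receptor, and Hgf hepatocyte growth factor. Cxcl2 had a positive r in each of the 4 groups, 0.84 in naive mice, 0.88 after BALB/c cells alone, 0.97 under CTLA4-Ig and 1.00 with CTLA4-Ig plus EPO (4 mice each), and Spearman's rho over the 16 deviations was 0.94. Without the 2 mice farthest from the median Acod1 deviation, r was 0.87. Il1b, among the 10 most alike over all 16 mice, had an r of 0.35 within groups.

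The lowest within-group r values were those of H2-T23 (−0.86), H2-Eb1 (−0.84), Fosb (−0.82), Tlr9 (−0.77) and Egr2 (−0.76). H2-T23 encodes the non-classical MHC class I molecule Qa-1, H2-Eb1 the β chain of the MHC class II molecule I-E, Tlr9 the receptor for CpG DNA, and Fosb and Egr2 are immediate early transcription factors. Their sign held in each of the 4 groups for H2-T23, H2-Eb1, Fosb and Egr2, and in 3 of 4 for Tlr9, where mice given CTLA4-Ig plus EPO had r = 0.53. In naive mice r was −0.80 for H2-T23 and −0.84 for Tlr9, but only −0.47 for H2-Eb1, −0.18 for Egr2 and −0.12 for Fosb. A mouse with more Acod1 than its group thus tended to have more Cxcl2 and Cd84 and less H2-T23 and H2-Eb1.

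**Figure D3:**
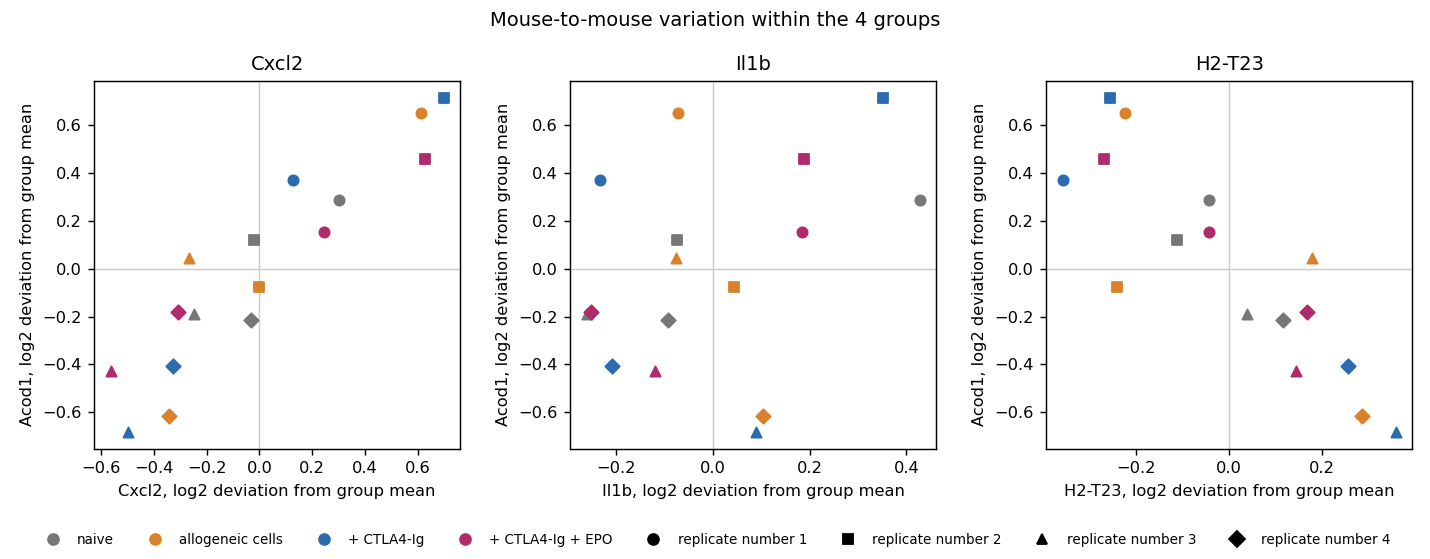
Deviation of Acod1 from its group mean (log2, vertical) against the deviation of Cxcl2, Il1b and H2-T23 (log2, horizontal) in 16 mice, coloured by group, with a marker for each replicate number. The points follow a rising line for Cxcl2 (r = 0.92) and a falling line for H2-T23 (r = −0.86), and scatter more for Il1b (r = 0.35).

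The deviations of Acod1 also went with properties of the whole sample and with the replicate number, and the part of these in the correlations was not tested. They correlated with the median of all rows (r = 0.80), with the scaling factor (r = 0.65) and with the total count (r = −0.36) over the 16 mice. On the deposited scale, mice numbered 1 had more Acod1 than their group mean in 4 of 4 groups and those numbered 2 in 3. Those numbered 3 had more in 1 group and those numbered 4 in 0. Per total count, the tallies for numbers 1 to 4 were 3, 3, 2 and 0 groups. The labels do not say what the number marks. With the mean of each replicate number subtracted as well, a calculation added after the values were seen, r was 0.81 for Cxcl2, 0.87 for Hgf, 0.74 for Ceacam1, 0.72 for Cd84, −0.55 for H2-T23 and −0.55 for H2-Eb1. Per total count, also added later, r within groups was 0.91 for Cxcl2, 0.84 for Cd84, −0.65 for H2-T23 and −0.54 for H2-Eb1. Fosb, Tlr9 and Egr2 had −0.62, −0.67 and −0.70 without the replicate number, and −0.58, −0.55 and −0.63 per total count. After median subtraction, r was 0.90 for Cxcl2, −0.88 for H2-T23 and −0.91 for H2-Eb1, and −0.94, −0.83 and −0.85 for Fosb, Tlr9 and Egr2. The median r over all rows then turned to −0.10, and 62 rows lay below −0.7, against 11 on the deposited scale. Cxcl2 therefore kept a high within-group r in each calculation. The negative r of H2-T23, H2-Eb1, Fosb, Tlr9 and Egr2 was smaller in size without the replicate number or per total count. After median subtraction it was larger in size.

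The genes of the route that induces Acod1 were next compared between the groups. Of 47 such genes listed, TLRs and their adaptors, interferons and their receptors, and the transcription factors they act through, 24 were in the table. After BALB/c cells alone, 18 of 24 were called lower and 1 higher than in naive mice on the deposited scale, where 58.4% and 11.9% of all rows were, but 5 were called lower and 11 higher per total count, where 18.0% and 45.4% of all rows were, so no direction is given for the list. Tlr2, the receptor for bacterial lipopeptides, fell by 2.48 (SE 0.12, adjusted P = 2.69e-10), Tlr4, the receptor for lipopolysaccharide, by 2.16 (SE 0.11, adjusted P = 5.45e-10), and its coreceptor Cd14 by 1.49 (SE 0.18, adjusted P = 4.08e-06), of which Cd14 lost its call per total count. Irf1, an interferon-induced transcription factor, was called lower by 0.99 on the deposited scale and stood higher by 0.095 per total count. With CTLA4-Ig added, 0 of 24 were called.

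With EPO, 5 of the 24 were called higher and 8 lower, where 22.8% and 28.3% of all rows were, with a median difference of 0.0073 against −0.07 over all rows. The split was 2 higher and 8 lower after median subtraction, against 17.2% and 37.6% of all rows. Per total count it was 5 and 4 (25.1% and 19.8% of all rows), and with limma-voom 7 and 3 (25.7% and 20.6%). No direction is therefore given for the list here either. Tlr4 had 6.62, 6.88, 6.85 and 6.63 with CTLA4-Ig and 8.49, 8.62, 8.81 and 8.71 with EPO, a rise of 1.91 (SE 0.11, adjusted P = 1.01e-08). Against naive mice, Tlr4 with EPO differed by −0.08 on the deposited scale, which did not pass the test (adjusted P = 0.52), but was called higher by 0.44 after median subtraction (adjusted P = 0.0056) and by 1.11 per total count (adjusted P = 1.76e-06). Ifng, the gene for interferon-γ, fell by 1.17 (SE 0.21, adjusted P = 0.00027). Irf1 fell by 0.37 (SE 0.10, adjusted P = 0.0079), a call lost per total count. The receptor for lipopolysaccharide was thus higher with EPO while Acod1 stayed at 25 to 34 counts a mouse.

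Of 43 genes that lipopolysaccharide induces in macrophages, as it does Acod1, 35 were in the table. After BALB/c cells alone 25 of 35 were called lower and 3 higher than in naive mice on the deposited scale, against 58.4% and 11.9% of all rows, and 8 lower and 14 higher per total count, against 18.0% and 45.4%, so that this list too has no settled direction, although Il1b fell on both. Il6 fell by 1.64 (SE 0.24, adjusted P = 2.18e-05), a call lost per total count, and Nos2, the inducible nitric oxide synthase, fell by 1.31 (adjusted P = 0.021) from a low level, a call lost after median subtraction, per total count, and without naive replicate 1 (−1.20), naive replicate 3 (−1.06) or replicate 4 of the mice given BALB/c cells alone (−1.22). Tnf was called lower by 0.50 (adjusted P = 0.019) on the deposited scale but stood higher by 0.24 after median subtraction and by 0.59 per total count, and was not called without replicate 1 of the mice given BALB/c cells alone (−0.36). With CTLA4-Ig 0 of 35 were called.

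With EPO, 15 of the 35 were called lower and 4 higher, against 28.3% and 22.8% of all rows, with a median difference of −0.40. After median subtraction the split was 15 to 3, against 37.6% and 17.2% of all rows. Per total count it was 10 to 4, against 19.8% and 25.1% of all rows. Tnfaip3, the NF-kB inhibitor A20, fell by 1.52 (SE 0.16, adjusted P = 2.30e-06), Il1b by 0.81 (SE 0.16, adjusted P = 0.00077) and Tnf by 0.61 (SE 0.17, adjusted P = 0.0082, a call lost per total count). Il12a, a subunit of interleukin 12, fell by 0.90 (SE 0.30, adjusted P = 0.021), a call lost without replicate 4 of the CTLA4-Ig group (−0.85) or of the EPO group (−0.72). The interferon-induced Isg15 rose by 2.16 (SE 0.19, adjusted P = 2.30e-07) and Il1a by 1.68 (SE 0.14, adjusted P = 1.45e-07). Il6 (0.29), Nos2 (−0.46) and, from the list of route genes, Cd14 (−0.07) did not pass limma's test with EPO, with adjusted P of 0.34, 0.44 and 0.77. Acod1, which was not tested, was lower on average by 0.54 (SE 0.38), with overlap between these groups.

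Of 26 genes in pathways that itaconate acts on, 10 were in the table. Nfe2l2, which encodes Nrf2, Keap1 and Hmox1 were not analysed here. After BALB/c cells alone 7 of 10 were called lower and 0 higher on the deposited scale, near the 58.4% of all rows called lower. Per total count 2 were lower and 5 higher, against 18.0% and 45.4% of all rows. Nlrp3, the inflammasome sensor, had 11.17, 10.97, 10.96 and 10.94 in naive mice and 9.08, 9.18, 9.10 and 9.43 after BALB/c cells alone, a fall of 1.81 (SE 0.09, adjusted P = 5.45e-10), and Nfkbiz fell by 1.31 (SE 0.13, adjusted P = 3.37e-07), a call lost per total count. Casp1, the inflammasome protease, Hif1a and Il18 were called lower by 0.96, 0.56 and 0.44 on the deposited scale and stood higher by 0.13, 0.52 and 0.64 per total count. With CTLA4-Ig 0 of 10 were called.

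With EPO, 2 of the 10 were called higher and 5 lower, against 22.8% and 28.3% of all rows. After median subtraction the split was 1 higher and 7 lower, against 17.2% and 37.6% of all rows. Per total count it was 2 and 4, against 25.1% and 19.8% of all rows. Nlrp3 had 9.35, 9.38, 9.54 and 9.33 with CTLA4-Ig and 7.88, 7.91, 7.84 and 7.88 with EPO, a fall of 1.52 (SE 0.09, adjusted P = 1.23e-08) without overlap. Nfkbiz fell by 0.40 (SE 0.13, adjusted P = 0.016), a call lost per total count and without replicate 3 of the EPO group (−0.31). Il18, which the inflammasome activates, rose by 1.93 (SE 0.13, adjusted P = 1.98e-08), from 7.82 to 8.11 with CTLA4-Ig to 9.70 to 10.06 with EPO. Casp1 (0.22) and Hif1a (−0.20) had adjusted P of 0.23 and 0.18 in the unblocked fit and were called with the replicate number as a block. Low Acod1 thus stood beside a lower Nlrp3 and a higher Il18 with EPO than in the other treated groups, where Acod1 was also low. Mean Acod1 was 4.85 after BALB/c cells alone, 4.78 with CTLA4-Ig and 4.24 with EPO, with overlap. Mean Nlrp3 was 9.20, 9.40 and 7.88 in the same order, and mean Il18 was 8.16, 7.99 and 9.92.

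Of 34 other enzymes of immune metabolism and oxidant production, 16 were in the table. After BALB/c cells alone 15 of 16 were called lower and 0 higher on the deposited scale, against 58.4% and 11.9% of all rows, with a median of −1.66 against −0.65 over all rows. Per total count 8 were lower and 0 higher, against 18.0% and 45.4% of all rows. Alox5, which starts leukotriene synthesis, fell by 2.90 (SE 0.21, adjusted P = 1.43e-08), and Ptgs2, the inducible cyclooxygenase, by 2.06 (SE 0.19, adjusted P = 1.63e-07). With CTLA4-Ig 0 of 16 were called.

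With EPO, 9 of the 16 were called higher and 2 lower, against 22.8% and 28.3% of all rows. Their median was 0.77, against −0.07 over all rows. After median subtraction 8 were called higher and 2 lower, against 17.2% and 37.6% of all rows. Per total count the split was 10 and 1, against 25.1% and 19.8% of all rows. Lpl, lipoprotein lipase, had 4.43, 4.66, 4.73 and 4.37 with CTLA4-Ig and 8.09, 8.22, 8.36 and 8.12 with EPO, a rise of 3.65 (SE 0.13, adjusted P = 5.33e-11). Alox5 rose by 1.03 (SE 0.21, adjusted P = 0.00072). Ptgs2 fell by 0.96 (SE 0.19, adjusted P = 0.00053). Epx and Mpo, the peroxidases of eosinophil and of primary neutrophil granules, rose by 3.003 and 2.88. The 6 eosinophil genes in the table, of which Epx is 1, held 0.0546% to 0.0734% of counts with CTLA4-Ig and 0.495% to 0.625% with EPO, and the 5 genes of primary granules and progenitors, of which Mpo is 1, went from 0.0741% to 0.117% of counts up to 0.383% to 0.555%. The part of these cells in the list's count was not tested.

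**Figure D4:**
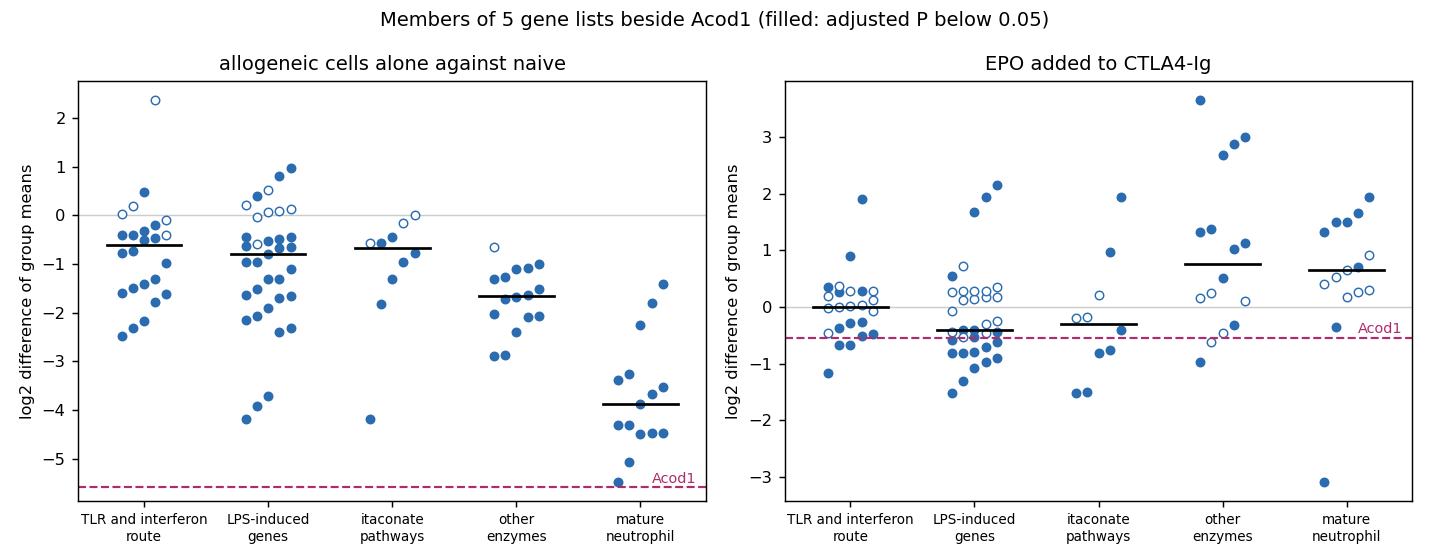
Log2 differences of group means on the deposited scale for the members of 5 gene lists (points, filled where limma's adjusted P was below 0.05), with the list median (black line) and Acod1 (dashed line), for BALB/c cells alone against naive mice (left) and EPO added to CTLA4-Ig (right). Acod1 lies below all members on the left, and on the right at −0.54, below the medians of all 5 lists.

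Against naive mice, the mice given CTLA4-Ig plus EPO had 19 of 24 route genes called lower and 1 higher, 23 of 35 lipopolysaccharide-induced genes lower and 2 higher, 8 of 10 genes of the itaconate pathways lower and 1 higher, 8 of 16 other enzymes lower and 3 higher, and 15 of 15 neutrophil genes lower. Over all rows 61.7% were called lower and 9.13% higher, and the shares of the lipopolysaccharide-induced genes lay near these. Per total count, where 12.3% of all rows were lower and 46.3% higher, these were 5 lower and 13 higher, 9 and 10, 3 and 4, 4 and 8, and 12 and 1. In these mice Acod1 was lower than in naive mice by 4.97 to 6.19 on the 3 scales, Il1b by 4.75, Csf3r by 4.33, Nlrp3 by 3.13 and S100a9 by 2.84 on the deposited scale. The naive mice enter this comparison and that with BALB/c cells alone, so the comparisons are not independent.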

How the data were processed

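RNA from splenic CD11b+ cells of 16 mice was counted on a NanoString panel. Per the study's methods, the authors normalized raw counts with limma. The deposited log2 values cover 734 genes, with a column per mouse. What the normalization was computed from is not given in the sources used here. The deposited values equal whole counts times 1 factor per mouse (100% whole to within 0.001, largest deviation 0.00038), so counts were recovered by dividing by the lowest value of a mouse. The lowest count of 1 (0.843% of values) may stand for 0. Totals were 562760 to 912328 per mouse, and intervals cover counting error only. Mice of a group differed beyond sampling noise (chi-square per degree of freedom at least 5.10).

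Groups came from sample names. A limma model (3.58.1, R 4.3.3) of 4 group means was fitted to all rows and 16 mice, with contrasts, two-sided tests, Benjamini-Hochberg adjustment over 734 rows and a threshold of 0.05, and was tested on simulated data. Acod1 itself was described, not tested. CPM was taken on the log2 scale after adding 0.5 to each count. Likeness was Pearson's r, and 483 rows had 20 counts or more in every mouse.

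The gene and the lists were chosen with earlier results of these data known. Named genes were Acod1, the 10 rows most like it, the 5 highest and 5 lowest within groups, preset pathway and neutrophil genes, and the largest rise and fall of each list. Alternatives were median, total and quantile scaling, a filter on the lowest 25% of rows, 2-group fits, trend and robust moderation, unadjusted P, limma-voom on recovered counts, the replicate block, leaving out each mouse, and, added after seeing the data, Acod1 differences within replicate numbers, CD11b+ markers under other scalings, ratios of Acod1 to other genes and within-group r with the replicate number removed, under other scalings and without the 2 farthest mice. Between CTLA4-Ig without and with EPO, same-numbered mice deviated jointly (r over rows 0.143 to 0.183 in 4 of 4 pairs), so the values alone pair these groups. Some genes that this rule names are not reported here, although they count in the lists. Symbols were matched to RefSeq (GRCm38.p6), 724 by symbol, 9 by synonym and 1 not at all. Other steps ran in Python 3.11.15 (scipy 1.17.1, numpy 2.4.6, pandas 2.3.3; plots in matplotlib 3.10.9).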

Additional observations from a re-analysis of the deposited data

Results flagged for a closer look

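In 8 of 208 groups of 4 mice (52 named genes in 4 groups), 1 mouse lay so far from the other 3 that its gap to them, divided by the range of the group, exceeded Dixon's 95% critical value for 4 samples, which chance alone gives in about 1 in 20 groups. Acod1 was not among these genes. The second CTLA4-Ig mouse stood apart for Csf3r (8.51, others 7.45 to 7.62), Il12a (4.66, others 5.15 to 5.20) and Nfkbiz (10.46, others 10.39 to 10.40). The first mouse given BALB/c cells alone stood apart for Ceacam1 (8.04, others 7.44 to 7.52), Hgf (6.61, others 5.84 to 5.95) and Isg15 (7.18, others 6.46 to 6.56). The first naive mouse stood apart for Hdc (11.33, others 10.73 to 10.82) and for Nlrp3 (11.17, others 10.94 to 10.97). The first naive mouse, the first mouse given BALB/c cells alone and the second CTLA4-Ig mouse also had the highest Acod1 of their groups on the deposited scale.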

How the results depend on the processing

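Acod1 was lower than in naive mice under every scaling, and the size moved with it: for BALB/c cells alone −4.85 after median subtraction, −4.48 per total count and −4.64 with quantile normalization, and for CTLA4-Ig with EPO −5.67, −4.97 and −5.37. Leaving out each mouse in turn gave differences of −5.80 to −5.37 for BALB/c cells alone, −0.31 to 0.16 for CTLA4-Ig, −0.77 to −0.30 for EPO and −6.34 to −6.05 for CTLA4-Ig with EPO against naive mice, so the sign for CTLA4-Ig depended on single mice (it was positive without replicate 1 of the mice given BALB/c cells alone and without replicate 3 or 4 of the CTLA4-Ig group). The count of rows called for CTLA4-Ig was 70 at unadjusted P and 0 to 1 without 1 mouse, and the other counts lay between 481 and 521, 344 and 387, and 494 and 525. Of the 10 rows most like Acod1, 3 stayed with Spearman's rho, 3 in the 12 treated mice and 7 to 10 without 1 mouse. With the replicate block, 531, 0, 400 and 531 rows were called for BALB/c cells alone, CTLA4-Ig, EPO, and CTLA4-Ig with EPO against naive mice. Among named genes the paired fit added Casp1, Hif1a and Tlr2 with EPO and Ifng after BALB/c cells alone, and ended no call. Scaling turned the share of calls that were higher, for BALB/c cells alone against naive mice, from 16.9% as deposited to 55.3% after median subtraction, 71.6% per total count and 56.7% with quantile normalization.

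Called falls against naive mice that turned to positive differences were the following. For BALB/c cells alone, median subtraction gave Hif1a 0.17, Il18 0.29 and Tnf 0.24. Total count scaling gave Casp1 0.13, Hif1a 0.52, Il18 0.64, Irf1 0.095 and Tnf 0.59. Quantile normalization gave Hif1a 0.38, Il18 0.20 and Tnf 0.17. Limma-voom gave Casp1 0.13, Hif1a 0.52, Il18 0.64, Irf1 0.098 and Tnf 0.60. For CTLA4-Ig with EPO, total count scaling gave Casp1 0.38, Fpr1 0.46, Hif1a 0.34 and Ifng 0.0060. Quantile normalization gave Casp1 0.012 and Hif1a 0.042. Limma-voom gave Casp1 0.38, Fpr1 0.45, Hif1a 0.34 and Ifng 0.019. The cause was not tested. Of the called differences of named genes with EPO, Irf1, Nfkbiz and Tnf lost their call under total count scaling. Acod1 values of treated mice rest on 25 to 62 counts, which limits their precision.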
